A study of Mus musculus with 8 samples.

Results

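The comparison set 2 Hi-C libraries of mouse embryonic stem cells with a catalytic RING1B mutation, I53A 1 and I53A 2, against 4 libraries of the wild-type parent, WT 1 to WT 4. These are 6 of the 8 libraries of the series. The members were taken from the labels by genotype, and every measured chromosome was kept: 19 autosomes, with chromosome X as a partner. The wild-type cells were E14tg2A (129/Ola, Ring1B+/+), an established feeder-free stem cell line. The mutant cells were a derivative of that line, Ring1B I53A/I53A, carrying isoleucine to alanine on both alleles. All cells of both groups were grown on gelatin in serum with LIF and fixed in 1% formaldehyde for 10 min. The labels number the libraries as biological replicates and name no second mutant clone, so the mutation and the clone that carries it cannot be told apart. The labels do not say whether replicates were separate cultures, and p-values measure only the spread between these libraries. The counts of read pairs hold no marker of cell type and no reading of the mutated codon, so neither label could be checked in them.

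RING1B is the catalytic core subunit of Polycomb repressive complex 1 (PRC1), which keeps developmental genes such as the Hox clusters silent in stem cells. It is an E3 ligase that places monoubiquitin on histone H2A, and the I53A change weakens its contact with the ubiquitin-conjugating enzyme, so that most of this activity is lost while the complex still forms. PRC1 is also known for compacting chromatin and for holding its target loci together over long distances. Hi-C ligates DNA ends that are close in the fixed nucleus and reads both ends of each ligated fragment, here after cutting with DpnII.

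RING1B is encoded by Rnf2 (ENSMUSG00000026484.7). In NCBIM37, the assembly also known as mm9, this gene occupies chr1:153316536-153347953 and is read from the minus strand. The 27 bases around codon 53 are shown because that codon is the only designed difference between the groups. They lie in exon 3, in coding sequence, at chr1:153324079-153324105, and are written 5′ to 3′ on the gene's strand. Capitals mark codon 53, which encodes isoleucine in the reference and spans 153324091 to 153324093.
Rnf2 codon 53 and its neighbours: ttaatgtgcccaATTtgtttggatatg

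The 6 libraries were sequenced to between 266798241 and 481763006 read pairs. After duplicates had been removed, the wild-type libraries kept 121369690 to 164477401 unique pairs and the mutant libraries 224243196 to 226877778. Interchromosomal pairs numbered 13284779 to 19743447 in wild type and 29043459 to 36841360 in I53A. The libraries differed in features other than genotype. Pairs under 1 kb apart, which include fragments that were never cut or ligated, made up 50.2%, 44.8%, 50.4% and 42.3% of intrachromosomal pairs in WT 1 to WT 4. In I53A 1 and I53A 2 they made up 34.5% and 14.05%, both below every wild-type library. The share of pairs classed as rescued from a read with more than 1 ligation split the libraries another way: it was 29.2% to 30.1% in WT 1, WT 2 and I53A 2, and 39.7% to 41.8% in WT 3, WT 4, I53A 1 and both knockout libraries. Each of these sets held both genotypes, so the level, the relative ratios and the far distance bins are also given within them. WT 1 and WT 2 carried more of chromosome 15: its share of read ends was 6.04% and 6.06% there, 4.14% and 4.16% in WT 3 and WT 4, and 4.13% in both I53A libraries. The other autosomes stayed much closer to the wild-type mean. Of the 19 read-end shares, 3 (15.8%) did not overlap between the groups. These were chromosome 15, chromosome 12, which was at 0.981 and 0.988 of the wild-type mean in I53A, and chromosome 1, which was at 1.07 and 1.05 of it.

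The first question was whether chromosomes of I53A cells contacted other chromosomes more or less often than in wild type. The measure was the trans/cis ratio: a chromosome's pairs with any other chromosome over its pairs within itself, the latter multiplied by the library's share of pairs at least 1 kb apart, since distances are given for the genome and not for each chromosome. Trans pairs were fewer relative to cis pairs in I53A. The geometric mean of the ratio over the autosomes was 0.486, 0.524, 0.4999 and 0.505 in WT 1 to WT 4. It was 0.451 in I53A 1 and 0.461 in I53A 2. Both mutant libraries lay under the lowest wild-type library. On the log2 scale the mean was -0.99 ± 0.045 (SD, n = 4) in wild type and -1.13 ± 0.022 (SD, n = 2) in I53A. The I53A level was therefore 9.46% lower, a difference of -0.14 (log2) against a pooled SD of 0.041. The exact two-sided permutation test gave p = 0.133, the smallest this test can give for 2 libraries against 4, so it cannot fall under 0.05 here. Within the libraries of high rescued share, which hold I53A 1, the difference was -0.16. Within those of low rescued share, which hold I53A 2, it was -0.13. As both mutant libraries lay under every wild-type library, the sign within each set was already given.

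**Figure D1:**
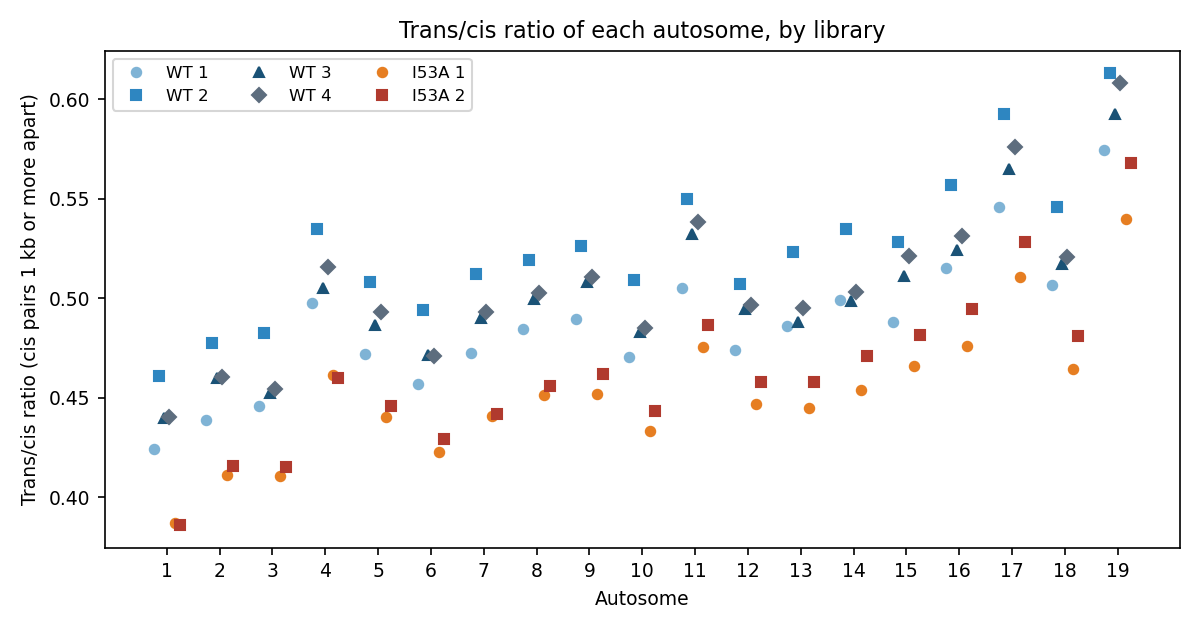
Trans/cis ratio (y axis, cis pairs 1 kb or more apart) of each autosome (x axis) in each of the 4 wild-type (blue and grey) and 2 I53A (orange and red) libraries; each point is 1 library. The I53A points lie below all wild-type points on all 19 autosomes.

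The lower ratio was spread over all chromosomes. On each of the 19 autosomes, and on chromosome X, both I53A libraries lay below all 4 wild-type libraries (100% of the 20 chromosomes). The decrease ranged from 7.24% on chromosome 19 to 12.4% on chromosome 1, with a median of 9.51%. All chromosomes of a library share its scaling for short pairs, so they are not separate observations of the decrease. Chromosome 1, the longest, had the lowest ratio in every library. It was 0.424, 0.461, 0.440 and 0.440 in WT 1 to WT 4, and 0.387 and 0.386 in I53A 1 and I53A 2. Chromosome 19, the shortest, had the highest: 0.574, 0.613, 0.593 and 0.608 in wild type, and 0.540 and 0.568 in I53A. The gap between the groups was narrower there, with I53A 2 only just below WT 1. Across the 19 autosomes the ratio was lower on longer chromosomes in every library, with Pearson's r from -0.87 in WT 4 to -0.92 in I53A 2. These are descriptions across chromosomes of 1 library each, and the chromosomes share that library's depth and scaling.

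The other autosomes kept a similar order in both genotypes. The ratio of chromosome 17 was second to that of chromosome 19 in each library, at 0.546 to 0.593 in wild type and 0.511 and 0.528 in I53A. Chromosomes 2 and 3, which are also long, were near chromosome 1: chromosome 2 had 0.439 to 0.478 in wild type and 0.412 and 0.416 in I53A, and chromosome 3 had 0.446 to 0.482 and then 0.411 and 0.415. The I53A mean was 9.86% to 10.3% lower on chromosomes 2, 3, 4, 6, 7, 9 and 10. It was 7.46% to 8.79% lower on chromosomes 12, 15, 16 and 17. Chromosomes 5, 8, 11, 13, 14 and 18 lay between, at 9.09% to 9.52%.

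The direction of the level depended on the pairs under 1 kb. With those pairs counted as cis, the geometric mean was 0.242, 0.289, 0.248 and 0.291 in WT 1 to WT 4 and 0.295 and 0.396 in I53A 1 and I53A 2. The I53A libraries were then higher on 18 of the 20 chromosomes (90%), and overlapped wild type on chromosomes 1 and X. The difference of the mean turned to 0.36 (log2). Short pairs were less common in both I53A libraries, as given above, and how many of them belong to each chromosome is not given in the sources used here. With only pairs at least 10 kb apart counted as cis, the difference was -0.13 (log2).

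The second question was whether any chromosome departed from its library's general level. Each ratio was therefore set against the mean of all autosomes of the same library, which removes the shared scaling. By edgeR's quasi-likelihood test with Benjamini-Hochberg adjustment over 20 chromosomes, 2 changed (10%): chromosome 1 fell and chromosome 15 rose. On the log2 scale the relative ratio of chromosome 1 was -0.20, -0.18, -0.19 and -0.20 in WT 1 to WT 4, and -0.22 and -0.25 in I53A 1 and I53A 2. Both I53A libraries lay below the wild-type range, with I53A 2 further out. The difference was -0.047 ± 0.011 (SE), or -3.22%, with an adjusted p of 0.0018 by edgeR. Chromosome 1 is also the chromosome whose share of read ends was highest in I53A and the one that carries Rnf2; the part of either in this difference was not tested. Chromosome 1 was also the chromosome called by DESeq2 (adjusted p 0.0078) and limma (0.0439). Its call was lost without I53A 2, where the difference was -0.030 (edgeR adjusted p 0.224). It was also lost with the replicate number as a block (-0.048, adjusted p 0.209) and with no floor on edgeR's dispersion (-0.047, adjusted p 0.0588). When short pairs were taken off each chromosome by its interchromosomal read ends, the difference of chromosome 1 turned to 0.039 (edgeR adjusted p 0.208).

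Chromosome 15 stood at 0.0081, 0.012, 0.033 and 0.046 in WT 1 to WT 4, and at 0.048 and 0.064 in I53A 1 and I53A 2. The lowest values were those of WT 1 and WT 2, the libraries with more chromosome 15 read ends, while I53A 1 was close to WT 4. The difference was 0.031 ± 0.010 (SE, log2), with an edgeR adjusted p of 0.0324. Against WT 3 and WT 4 only, it was 0.017 with an adjusted p of 0.365, so the call did not hold among libraries with like amounts of this chromosome. It was also lost without WT 1 (0.026), without WT 2 (0.027), without I53A 1 (0.040) and without I53A 2 (0.023). With the difference at 0.031 or 0.032 it was not called by DESeq2 (adjusted p 0.181) or limma (0.281). Nor was it called by edgeR with all 8 libraries (0.0520), with a block for the rescued share (0.127) or with no dispersion floor (0.0588). With short pairs taken off by interchromosomal read ends, its edgeR adjusted p was 0.253. In the knockout libraries, where chromosome 11 had 1.46 and 1.47 times its wild-type mean share of read ends, the relative ratio of that chromosome was 0.017 and 0.034, against 0.057 to 0.093 in wild type. In both cases the libraries with more of a chromosome had the lower relative ratio for it, and the part of copy number in these values was not tested.

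**Figure D2:**
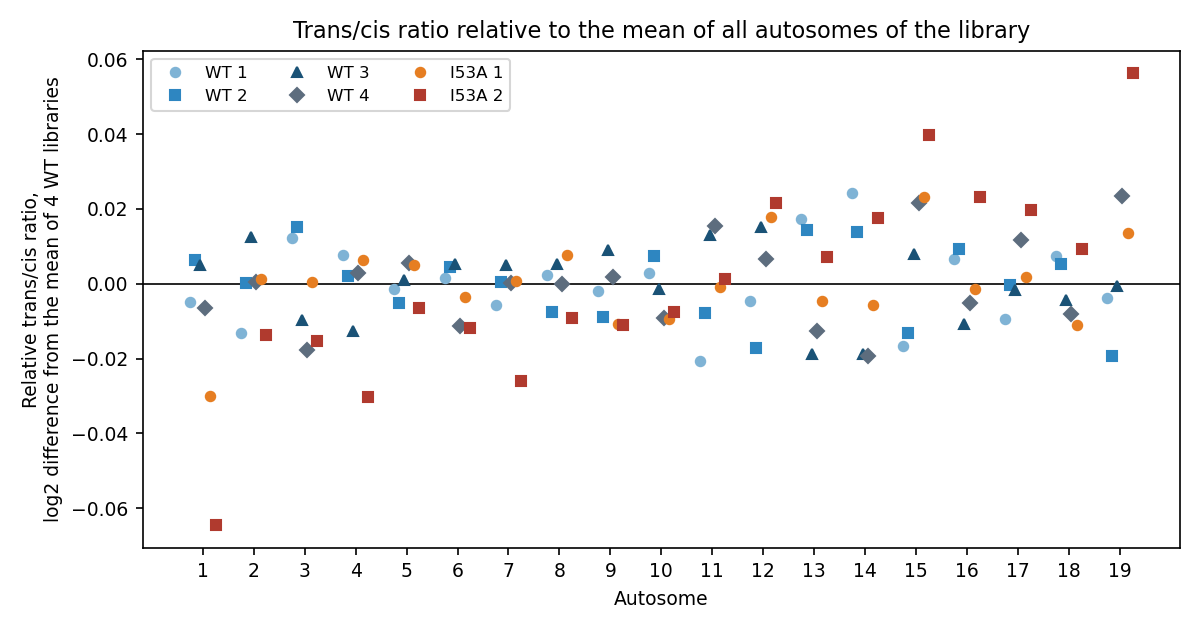
Trans/cis ratio of each autosome relative to the mean over autosomes of its library, as a log2 difference (y axis) from the mean of the 4 wild-type libraries; each point is 1 library. Chromosome 1 lies lowest in both I53A libraries. Chromosomes 15 and 19 lie highest in I53A 2, and chromosomes 15 and 12 in I53A 1. On chromosomes 1, 15 and 19, I53A 2 (red squares) is farther from zero than I53A 1 (orange circles).

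The other departures were smaller or did not separate the groups. Chromosome 19 had the largest positive difference, 0.035 ± 0.027 (SE), but its values of 0.24, 0.23, 0.25 and 0.27 in wild type and 0.26 and 0.30 in I53A overlapped, and its edgeR adjusted p was 0.776. Without I53A 2 its difference was 0.014, below those of chromosomes 15 (0.023) and 12 (0.018). Chromosome 12 stood at -0.035, -0.047, -0.015 and -0.023 in wild type and at -0.012 and -0.0085 in I53A, without overlap, and its edgeR adjusted p was 0.447. Chromosomes 7 and 4 had the next lowest differences after chromosome 1. Chromosome 7 was between -0.039 and -0.028 in wild type and at -0.033 and -0.060 in I53A, and chromosome 4 was between 0.016 and 0.036 in wild type and at 0.034 and -0.0020. On both, I53A 1 lay inside the wild-type range and I53A 2 outside it. Chromosome 9 was lower in both I53A libraries (0.0040 and 0.0038) than in wild type (0.0060 to 0.024), with a difference of -0.011. In all, 4 of the 20 chromosomes (20%) did not overlap between groups. DESeq2 and limma each called chromosome 1 alone, and 3 had an unadjusted p under 0.05 by each tool. The median size of the difference over the autosomes was 0.0085, against a median wild-type SD of 0.0088.

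Under the main scaling for short pairs, relative differences were ordered by chromosome length. All 5 of the longest autosomes (1 to 5) had differences below 0, with a median of -0.0074, and the 5 shortest (15 to 19) had a median of 0.011. Over all 19 autosomes the median was -0.00079, and Pearson's r of the difference with length was -0.80 (Spearman's rho -0.74, n = 19 chromosomes). This pattern came with 1 mutant library. Between I53A 2 and the wild-type libraries of the same low rescued share, r was -0.83 (rho -0.81), with -0.065 for chromosome 1 and 0.068 for chromosome 19. Between I53A 1 and those of high rescued share, r was -0.28 (rho -0.070), with -0.029 and 0.0022 for the same chromosomes. Only 10 of the 19 autosomes had a difference of the same sign in both sets. Chromosome 1 was the lowest in each. Genes per Mb showed no such relation, with an r of 0.10 (-0.27 in the high rescued set and 0.22 in the low). The number of GATC sites per kb, the sites that DpnII cuts, gave an r of -0.40 (rho -0.57), and GC content 0.18. Both ends of the order by length depended on how short pairs were treated. When these were taken off each chromosome by its interchromosomal read ends, chromosome 1 turned to 0.039 and chromosome 19 to -0.12.

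The comparison was repeated without chromosome 15, both as a chromosome and as a partner. The level was again lower in I53A, at 0.430 and 0.438 against 0.454 to 0.489 in wild type, a decrease of 8.62% (exact two-sided permutation p = 0.133, the smallest possible). Of the 18 autosomes left, 17 (94.4%) were lower in both I53A libraries than in all wild-type libraries, by 7.30% to 11.5%. The exception was chromosome 19, 6.28% lower in the mean, whose ratio was 0.515 and 0.541 in I53A and 0.536 to 0.580 in wild type. Chromosome 1 was the only call by edgeR, 1 of 19 chromosomes (5.26%), with a relative difference of -0.046 ± 0.012 (SE) and an adjusted p of 0.0040.

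The third question was which chromosomes each chromosome met. Partner preference was the observed number of pairs between 2 chromosomes over the number expected from the interchromosomal totals of both, so that a chromosome's copy number cancels. Each of the 190 pairs of chromosomes held 19710 to 391060 read pairs in a library. Preferences changed very little. The median size of the difference was 0.0073 (log2), or 0.507%, against a median wild-type SD of 0.0087. edgeR called 0 of 190 pairs (0%). That count depends on a floor set on its dispersion after the data were seen, without which 46 were called. An unadjusted p under 0.05 was found for 33, of which 19 were higher and 14 lower in I53A. The smallest adjusted p was 0.0935. limma called 0, with 31 under 0.05 unadjusted, and DESeq2 called 3 (1.58%), with 24. The groups did not overlap for 59 pairs (31.1%), 29 higher and 30 lower.

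**Figure D3:**
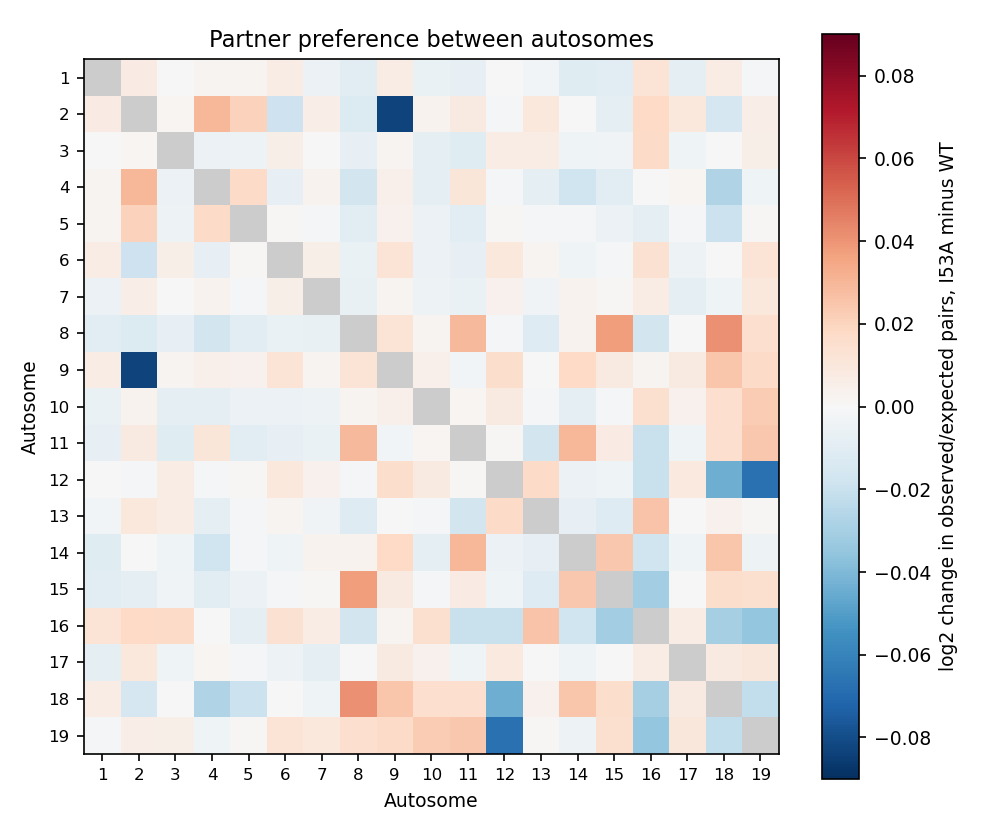
Change in log2 observed over expected read pairs between each pair of autosomes (both axes), I53A minus wild type; red is higher in I53A, blue lower, and grey marks a chromosome with itself. The darkest cell is 2 with 9, at -0.084, and the strips of chromosomes 7 and 17 are nearly white.

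With no pair called by edgeR, the pairs named next were chosen after their values were seen. The 3 that DESeq2 called were 4 with 18, 8 with 18 and 15 with 16. Chromosomes 4 and 18 stood at -0.045, -0.040, -0.041 and -0.048 (log2 observed over expected) in WT 1 to WT 4 and at -0.068 and -0.073 in I53A, a difference of -0.027 (-1.87%). Chromosomes 8 and 18 stood at -0.014, -0.012, 0.0087 and 0.0053 in wild type and at 0.040 and 0.036 in I53A, a difference of 0.041 (2.89%). Chromosomes 15 and 16 stood at -0.016, -0.019, -0.0057 and -0.020 in wild type and at -0.048 and -0.046 in I53A, a difference of -0.032 (-2.17%). In each of these 3 the mutant libraries lay close together and outside the wild-type range. Their adjusted p was 0.0935 by edgeR, and 0.0076, 0.0037 and 0.0041 by DESeq2. Without chromosome 15 the edgeR adjusted p was 0.0956 for 4 with 18 and for 8 with 18. Against WT 3 and WT 4 only, edgeR called 8 of 190 pairs, these 3 among them, with adjusted p-values of 0.0063, 0.0061 and 0.0063. It also called 2 with 9 there, although WT 3 and WT 4 stood at 0.19 and 0.046. A call in that fit therefore does not show that the wild-type libraries agreed. The replicate number as a block has no label behind it and leaves WT 3 and WT 4 without a mutant library of their number. With that block edgeR called 37 pairs, the same 3 among them, at adjusted p-values of 0.0137, 0.00016 and 0.0365. Without I53A 2 the adjusted p of each was 0.852, the highest over the alternatives.

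The largest differences were not those with the smallest p, because the wild-type libraries themselves varied. Chromosomes 2 and 9 met more often than expected in WT 1 to WT 4, at 0.12, 0.081, 0.19 and 0.046, and stood at 0.035 and 0.016 in I53A. The difference was -0.084 (-5.63%), but the wild-type libraries spanned more than that, and the edgeR adjusted p was 0.285. It was called by edgeR against WT 3 and WT 4 only, with a difference of -0.093 (adjusted p 2.9e-06), although those 2 libraries were themselves far apart. Chromosomes 12 and 19 stood at 0.20, 0.10, 0.071 and 0.059 in wild type and 0.047 and 0.040 in I53A, a difference of -0.067 with an edgeR adjusted p of 0.331. WT 1 was far above the other libraries in that pair. Without it the difference was -0.035, and against WT 3 and WT 4 only it was -0.021.

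By autosome, 0 partners were called by edgeR for any. The number of its 19 partners whose groups did not overlap was 12 for chromosome 18, 10 for chromosomes 11 and 16, and 9 for chromosome 8, against 31.1% of all pairs. Chromosome 18 had 8 of these higher and 4 lower, and chromosome 16 had 7 higher and 3 lower. Chromosome 8 leaned the other way, with 3 higher and 6 lower. At the other end, chromosome 7 had 0 such partners and chromosome 17 had 1, and no partner of chromosome 7 differed by more than 0.0095 in either direction. The other autosomes had 3 to 8. A pair counts for both of its chromosomes, so these numbers are not independent.

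Groups of chromosomes were then compared by their own pairs. Chromosomes 12, 15, 16, 18 and 19 carry ribosomal RNA gene arrays in common mouse strains, and such arrays gather at the nucleolus. Their 10 mutual pairs had a median log2 observed over expected of 0.14, 0.10, 0.066 and 0.068 in WT 1 to WT 4 and of 0.057 and 0.065 in I53A. Both I53A medians lay just under the 4 wild-type values, and those of WT 3 and WT 4 were close to them. The median difference was -0.026, with 8 of 10 pairs below 0, against 0.00023 over all 171 pairs of autosomes, of which 83 were below 0. None of the 10 was called by edgeR, and 4 did not overlap between groups, 1 of them higher. That share is near the 31.1% of all 190 pairs.

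The 4 Hox clusters are classic PRC1 targets. In NCBIM37 Hoxa lies on chromosome 6 (52105366 to 52210874), Hoxb on chromosome 11 (96055630 to 96229570), Hoxc on chromosome 15 (102751534 to 102867274) and Hoxd on chromosome 2 (74506367 to 74603200). The 6 pairs among these chromosomes had a median difference of -0.0044, with 4 of 6 below 0 and 0 called by edgeR. The pair of chromosomes 2 and 6 was the one furthest from 0, at 0.038, 0.032, 0.052 and 0.033 in wild type and 0.021 and 0.019 in I53A. Its difference was -0.019 with an edgeR adjusted p of 0.277. Chromosomes 11 and 15, the pair with the highest preference of the 6, stood at 0.093 to 0.11 in wild type and 0.10 and 0.12 in I53A. A count per whole chromosome cannot resolve contacts between the clusters themselves.

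The remaining lists moved as little. The median difference was 0.0024 among the 5 longest autosomes and 0.0037 among the 5 shortest. It was 0.0052 among the 5 autosomes with most genes per Mb (7, 9, 11, 17 and 19) and -2.9e-05 among the 5 with fewest (1, 3, 12, 16 and 18). Without chromosome 15, edgeR called 0 of 171 pairs (0%), with 24 under an unadjusted p of 0.05 and a smallest adjusted p of 0.0956. The groups did not overlap for 53 of those pairs (31%), 27 higher and 26 lower.

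The last question was how contact frequency within chromosomes fell with distance, often written P(s). Intrachromosomal pairs at least 1 kb apart were counted in 22 distance bins, 4 to a factor of 10, with the 4 strand orientations summed, and given as a share of all such pairs. Bins are given for the genome only, so chromosome 15 could not be left out of them, and WT 3 and WT 4 alone serve as the comparison without extra chromosome 15. Up to 56.2 Mb the groups overlapped in every bin, and between 56.2 and 178 Mb both I53A libraries held more pairs than any wild-type library. edgeR called 0 of 22 bins (0%), with 1 under an unadjusted p of 0.05. DESeq2 and limma also called 0, each with 2 under 0.05. The groups did not overlap in 2 bins (9.09%), both higher in I53A.

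The first of these bins runs from 56.2 to 100 Mb. It held 1.77%, 2.01%, 1.84% and 2.09% of pairs in WT 1 to WT 4, and 2.32% and 2.41% in I53A 1 and I53A 2. Both I53A libraries were above the highest wild-type library. The difference was 0.29 ± 0.10 (SE, log2), with an edgeR adjusted p of 0.590. This was the bin that fell under 0.05 before adjustment. The next bin, from 100 to 178 Mb, held 0.290%, 0.318%, 0.270% and 0.316% in wild type and 0.363% and 0.355% in I53A, a difference of 0.27 ± 0.16 (edgeR adjusted p 0.849). Only chromosomes longer than the distance can contribute here. The differences were 0.24 and 0.31 within the libraries of high rescued share, which hold I53A 1. They were 0.35 and 0.23 within those of low share, which hold I53A 2. Since both mutant libraries lay above every wild-type library, the sign within each set was already given, and only the sizes are added here.

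**Figure D4:**
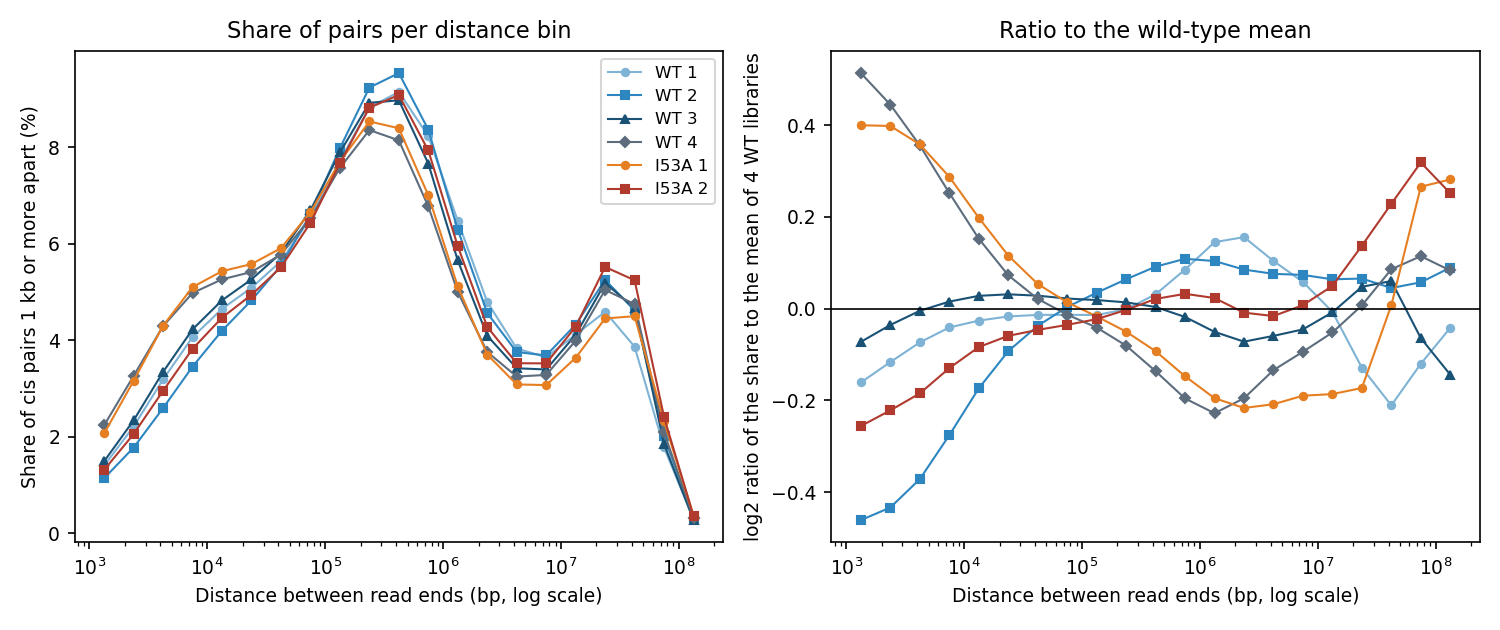
Left, share of intrachromosomal pairs at least 1 kb apart (y axis, %) in each distance bin (x axis, bp, log scale) for each library. Right, the log2 ratio of that share to the mean of the 4 wild-type libraries; I53A 1 (orange) runs near WT 4 (grey) at short distances, and both I53A libraries lie above all wild-type libraries in the last 2 bins drawn.

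At the shortest distances the 2 mutant libraries differed from each other more than the groups did. Pairs 1 to 1.78 kb apart made up 1.40%, 1.14%, 1.49% and 2.23% in WT 1 to WT 4, and 2.06% and 1.31% in I53A 1 and I53A 2. The mutant libraries were apart by -0.66 (log2, I53A 2 minus I53A 1) and the wild-type libraries spanned 0.98, while the groups differed by 0.11 ± 0.31 (SE). Shares of inward-facing pairs in this bin were 25.6% to 26.7% in wild type and 26.0% and 26.2% in I53A, and those of outward-facing pairs 23.3% to 24.2% and 23.4% to 23.5%. Uncut fragments give inward-facing pairs and self-ligated ones outward-facing pairs, and neither share separated the genotypes. Between 177.8 and 562.3 kb, the range of domains and loops, the bins held 8.14% to 9.53% of pairs in wild type and 8.39% to 9.08% in I53A. The lowest difference was in the bin from 3.16 to 5.62 Mb, with 3.83%, 3.75%, 3.42% and 3.24% in wild type and 3.08% and 3.52% in I53A. The difference was -0.11 ± 0.10 (SE, edgeR adjusted p 0.849). I53A 1 was below all wild-type libraries there and I53A 2 was not, and without I53A 1 the difference was -0.016. The bin from 31.6 to 56.2 Mb held 4.49% in I53A 1, within the wild-type range, and 5.24% in I53A 2, above it, against 3.86%, 4.61%, 4.66% and 4.75% in wild type.

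The slope of P(s), fitted over the bins of each factor of 10 on log10 axes, summarised these bins. From 10 to 100 Mb it was -1.47, -1.42, -1.44 and -1.35 in WT 1 to WT 4 and -1.23 and -1.31 in I53A 1 and I53A 2. The decay was shallower in both mutant libraries than in any wild-type library. The difference was 0.15 against a pooled SD of 0.052, with p = 0.133 by the exact two-sided permutation test, the smallest possible, and 0.667 after adjustment over the 5 slopes. The groups overlapped in the other 4. The slope was -0.42 ± 0.081 (SD, n = 4) in wild type and -0.43 ± 0.068 (SD, n = 2) in I53A from 1 to 10 kb. It was -0.81 ± 0.056 and -0.84 ± 0.066 from 10 to 100 kb, -1.002 ± 0.047 and -1.01 ± 0.053 from 100 kb to 1 Mb, and -1.30 ± 0.039 and -1.30 ± 0.0067 from 1 to 10 Mb. Their exact permutation p-values were 0.80 to 1.

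The same bins were also set against interchromosomal pairs, a scaling chosen after the values were seen. Per 1000 interchromosomal pairs, the bin from 56.2 to 100 Mb held 73.4, 76.9, 74.4 and 83.4 pairs in WT 1 to WT 4 and 103 and 105 in I53A 1 and I53A 2. The difference was 0.44 ± 0.095 (SE, log2), with an edgeR adjusted p of 0.0603. On this scale 8 of 22 bins (36.4%) were higher in both I53A libraries than in all wild-type libraries, and 0 were called by edgeR, with 5 under an unadjusted p of 0.05. The lower trans/cis ratio enters each of these values. On either scale both mutant libraries were higher between 56.2 and 178 Mb.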

How the data were processed

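Counts of read pairs per library were deposited by the authors as tables of 409 statistics: totals, pairs between and within chromosomes, and pairs by distance and orientation. Reads had been mapped to mm9, per the submitters' processing notes; mapping and duplicate filters are not given in the sources used here. The 3 pooled columns were not used. The members, lists and measures were chosen with earlier results of these data known.

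Chromosomes 1 to 19 and X were analysed. Expected pairs came from iterative proportional fitting. Counts were tested with edgeR 4.0.16 (glmQLFit and glmQLFTest, R 4.3.3) with log offsets, Benjamini-Hochberg adjustment and a threshold of 0.05; bins needed a mean count of 10. DESeq2 1.42.0 and limma 3.58.1 were alternatives. Single values had exact permutation tests.

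A floor of 0.0001 was set on edgeR's dispersion after the data were seen. Of 190 pairs, 163 had a fitted dispersion under it, where edgeR's deviance (median 1055) left the exact formula (median 1.09); with the floor both gave 1.08. Of the 20 chromosomes, 16 were under the floor in the trans/cis test, with medians of 25055295 by edgeR and 2.61 by the exact formula without it. The edgeR calls of chromosomes therefore also depend on the floor. Without the floor 46 pairs and 0 chromosomes were called. On simulated counts for this comparison the test recovered 4 of 4 chromosomes changed by 0.1 (log2). It recovered 15 of 20 pairs changed by 0.05, with 0 false calls for chromosomes or pairs. It recovered 4 of 4 bins changed by 0.5, with 2 false calls among the unchanged bins. Noise was simulated separately for each feature, so shifts shared by neighbouring bins were not covered. The planted sizes exceeded the largest observed relative difference of a chromosome (-0.047) and of a bin (0.29), and the median size over pairs (0.0073). Recovery of changes as small as most of those observed was not tested.

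Chromosomes described in detail were the 3 with the highest and the 3 with the lowest relative change and any called. For pairs, the rule was the 5 largest rises and falls among those called, of which there were 0. Bins were those called, those outside the wild-type range in both I53A libraries, and the largest rise and fall. In raw counts of pairs between and within chromosomes, no 2 libraries of the same genotype agreed within sampling noise. Those counts include the pairs under 1 kb, and the relative ratios, partner preferences and distance bins were not compared in that way.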

Additional observations from a re-analysis of the deposited data

Results flagged for a closer look

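In 1 of 53 measures checked over the 4 wild-type libraries, 1 library stood apart from the others; chance gives about 2.65. The share of intrachromosomal pairs in the bin from 31.6 to 56.2 Mb was 3.86% in WT 1, below the 4.61% to 4.75% of the other wild-type libraries.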

How the results depend on the processing

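The trans/cis level was lower in I53A in all alternatives but 1: with pairs under 1 kb counted the difference turned to 0.36, since those pairs were scarcer in both I53A libraries. The slope difference from 10 to 100 Mb and the differences in the bins from 56.2 to 178 Mb stayed above 0 in all alternatives run. In each, 0 bins were called. Leaving out or splitting libraries could not turn the sign of the level, this slope or these bins, since the groups did not overlap there. In place of 2 chromosomes called, 1 was called by DESeq2, by limma, with all 8 libraries in a single fit, with WT replicates 3 and 4 only, with a block for the rescued share, without chromosome 15 (with and without that block) and with short pairs taken off by interchromosomal ends; 0 were called with no floor on the dispersion, and 0 to 2 without each library in turn. Taking off short pairs by interchromosomal ends turned the relative difference of chromosome 1 to 0.039, of chromosome 19 to -0.12 and of chromosome 7 to 0.0083. Chromosomes 1 and 15 were not called that way (edgeR adjusted p 0.208 and 0.253), so the 1 call there was another chromosome. Without each library in turn it ran from -0.030 to 0.0062 for chromosome 4 and from -0.026 to 0.00078 for chromosome 7, above 0 only without I53A 2. In place of 0 chromosome pairs, 2 were called with all 8 libraries, 3 by DESeq2, 8 with WT replicates 3 and 4 only, 1 without chromosome 15 with the block for the rescued share, 0 to 3 without each library in turn (3 without WT 1) and 46 with no floor, where edgeR's deviance departs from its formula. The preference of 8 with 15 turned to -0.28 under TMM without the offset for chromosome totals, and the bin from 3.16 to 5.62 Mb to 0.033 when scaled to interchromosomal pairs. With WT replicates 3 and 4 only, the slope difference turned to 0.037 from 1 to 10 kb, 0.0067 from 10 to 100 kb and 0.024 from 100 kb to 1 Mb; from 1 to 10 Mb it turned to 0.018 within the low rescued share. Without each library in turn these 4 ran from -0.059 to 0.037, -0.076 to 0.017, -0.050 to 0.025 and -0.018 to 0.014. The floor, the scaling to interchromosomal pairs, the sets of rescued share taken singly and the joint change of block and chromosome 15 were chosen after seeing the data. Where no cause is named, the cause was not tested.

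Replicates 1 and 2 share numbers across genotypes, with no label that pairs them. Their deviations correlated at -0.31 for number 1 and 0.95 for number 2 over the bins. WT 4 and I53A 1, with unlike numbers, correlated at 0.90, so these values do not single out a pairing by number. Each value recurs with the other sign for the other mutant library. With the replicate block, 37 chromosome pairs and 1 chromosome (15) were called, and the slope difference from 1 to 10 Mb turned to 0.023. Depth limits the pairs little, at 19710 read pairs or more each; the number of libraries limits every comparison.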
